A study of Mus musculus with 6 samples.

Results

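Insulin signalling in the liver was followed through 10 genes, Insr, Irs1, Irs2, Pik3r1, Akt1, Akt2, Foxo1, Foxo3, Igfbp1 and Igfbp2. They were chosen by their symbols, as parts of the insulin receptor pathway and as genes that insulin represses, with earlier results of these data known. All 10 were found among the 55450 genes counted, and all 10 had enough counts to be tested. RNA was taken from the left liver lobe of 6 mice of the strain labelled C57BL/J, with 1 library per mouse. In 3 mice both alleles of LKB1 (gene symbol Stk11) were flanked by loxP sites (LKB1 fl/fl, here knockout or KO), and 3 were wild type (WT). At 6 weeks of age the mice of both groups were given AAV8 Cre, a viral vector for the recombinase Cre, so the controls carry it too. They were killed for liver RNA at the age of 10 weeks, which was 4 weeks after the virus. The promoter that drove Cre, the feeding state at collection and the time of day are not given in the sources used here.

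Insulin binds a receptor tyrosine kinase on the hepatocyte, which phosphorylates the docking proteins IRS1 and IRS2. These recruit phosphoinositide 3-kinase (PI3K), whose lipid product activates the kinase Akt. Akt phosphorylates the forkhead factors FoxO1 and FoxO3 and so keeps them out of the nucleus. When insulin is low, FoxO proteins enter the nucleus and activate genes such as Igfbp1, Irs2 and those for glucose production. LKB1 is a kinase upstream of AMPK and related kinases, and the series title names metabolic reprogramming as its subject. The comparison of KO with WT asks which transcripts of this pathway differ in liver after deletion of LKB1.

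Total counts ran from 47659122 to 56147667 per library, and every one of the 10 genes had at least 1351 counts in each library. Stk11 (GRCm38 chromosome 10, 80115803 to 80130682) tests the labels. It had 22.1, 14.4 and 11.4 CPM (counts scaled to the TMM-adjusted library size) in KO against 66.1, 64.2 and 69.7 in WT. It fell by 2.06 on the log2 scale (SE 0.247, adjusted p = 0.0167 in the quasi-likelihood test of edgeR). That call was kept without KO 1 or WT 1. It was lost without any other library, with edgeR adjusted p from 0.0607 to 0.104. Replicate 1 of each group carried counts of Xist and almost none of 4 Y-linked genes, and the other 4 libraries the reverse. The labels give no sex. Results are therefore also given within the 4 libraries that carry Y-linked counts, called Y-positive below (2 against 2), and for the Xist-positive pair (1 against 1, no replicate check). The 10 hepatocyte markers, Alb among them, summed to 30672 to 79664 CPM in KO and 90255 to 128434 CPM in WT. A sum follows its most abundant genes. Of the 10 hepatocyte markers 4 had a log2 fold change above 0, and the median was -0.49. Over 6 libraries 1 was called higher (Tat) and 0 lower, or 10% beside 3.37% of all genes. In the Y-positive libraries 5 were called lower and 1 higher, where 16.1% of all genes were lower and 17.2% higher. Markers of other liver cells were present at low levels. The 10 endothelial markers summed to 147 to 224 CPM in KO and 272 to 368 CPM in WT, and all 10 had a log2 fold change below 0. The sums were 109 to 242 CPM in KO and 150.1 to 205 CPM in WT for 11 immune markers, and 109.9 to 237 CPM in KO and 183 to 388 CPM in WT for 9 stellate cell markers. All 9 stellate markers and 7 of the immune markers also had a log2 fold change below 0. For 8 bile duct markers the sums were 31.4 to 87 CPM in KO and 53.4 to 87 CPM in WT, and 5 were below 0. None of these markers was at 0 in all libraries, and their part in the results below was not tested. In whole tissue, fewer cells of a type and less RNA per cell cannot be told apart.

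The promoters of Igfbp1, Irs2 and Irs1 are shown because they are the members whose window held the core of the insulin response element, for which Igfbp1 is the textbook case. The windows are the 250 bases before the RefSeq start, on the gene's strand, from the mouse build GRCm38.p6. Capitals mark CAAAACA, that core, or TGTTTTG, the same letters on the other strand.
Igfbp1, chr11:7197537-7197786, plus strand: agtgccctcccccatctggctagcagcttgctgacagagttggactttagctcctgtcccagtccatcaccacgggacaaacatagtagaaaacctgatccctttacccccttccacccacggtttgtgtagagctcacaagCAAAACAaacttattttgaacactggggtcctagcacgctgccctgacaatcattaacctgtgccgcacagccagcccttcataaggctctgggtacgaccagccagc
Irs2, chr8:11008930-11009179, minus strand: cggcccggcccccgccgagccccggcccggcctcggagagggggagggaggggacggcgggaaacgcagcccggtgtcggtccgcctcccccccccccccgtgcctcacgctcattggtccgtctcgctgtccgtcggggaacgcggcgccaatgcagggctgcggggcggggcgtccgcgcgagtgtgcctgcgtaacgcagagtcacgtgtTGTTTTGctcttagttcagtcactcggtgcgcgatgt
Irs1, chr1:82291440-82291689, minus strand: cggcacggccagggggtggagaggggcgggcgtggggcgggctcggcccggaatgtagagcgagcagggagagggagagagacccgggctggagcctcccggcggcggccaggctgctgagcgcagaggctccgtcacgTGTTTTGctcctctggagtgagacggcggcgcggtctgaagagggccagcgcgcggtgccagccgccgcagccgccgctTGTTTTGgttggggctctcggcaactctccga
Igfbp1 held 1 match, from 108 to 102 bases before the start. Irs2 held 1, from 37 to 31 bases before it. Irs1 held 2, of which the first spanned 111 to 105 bases and the second 32 to 26 bases before the start. Such a match was found in 5.56% of all 32851 windows of this length in the table, and in 3 of the 15 windows of the 9 members that could be matched. The forkhead motif GTAAACA, searched on both strands like the others, overlapped none of these matches and was present in 3.17% of windows and in 1 of the members' 15, in Akt1, from 161 to 155 bases before 1 of its starts. The cyclic AMP response element TGACGTCA was present in 1.55% of windows and in 0 of the members' 15. A match describes the letters in this window and is not a site.

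Over the 6 libraries none of the 10 genes passed an adjusted p of 0.05 in edgeR, where 3.37% of the 14539 genes tested did (2.15% higher and 1.22% lower in KO). Of the calls over all genes 63.9% were higher in KO, and 74.4% with scaling by library size alone. At an unadjusted p under 0.05 there were 3 members (Irs1, Irs2 and Igfbp1), or 30%, beside 26.3% of all genes. Between KO and WT 3 members did not overlap (Irs1 and Irs2 higher, Igfbp2 lower), beside 32.4% of all genes (16.9% higher and 15.5% lower). Both shares are near those of all genes tested. DESeq2 called 2 members, Irs2 and Igfbp1, against a background of 14.6%, and limma voom called 0, against 2.97%. Within the 4 Y-positive libraries edgeR called 4 members, with Irs2, Foxo1 and Igfbp1 higher and Igfbp2 lower. This was 40% of the members beside 33.3% of 14546 genes (17.2% higher and 16.1% lower). The number depended on single libraries: without KO 1 it was 4 (background 30.2%), and without WT 1 it was 1, Irs2 (background 1.75%).

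**Figure D1:**
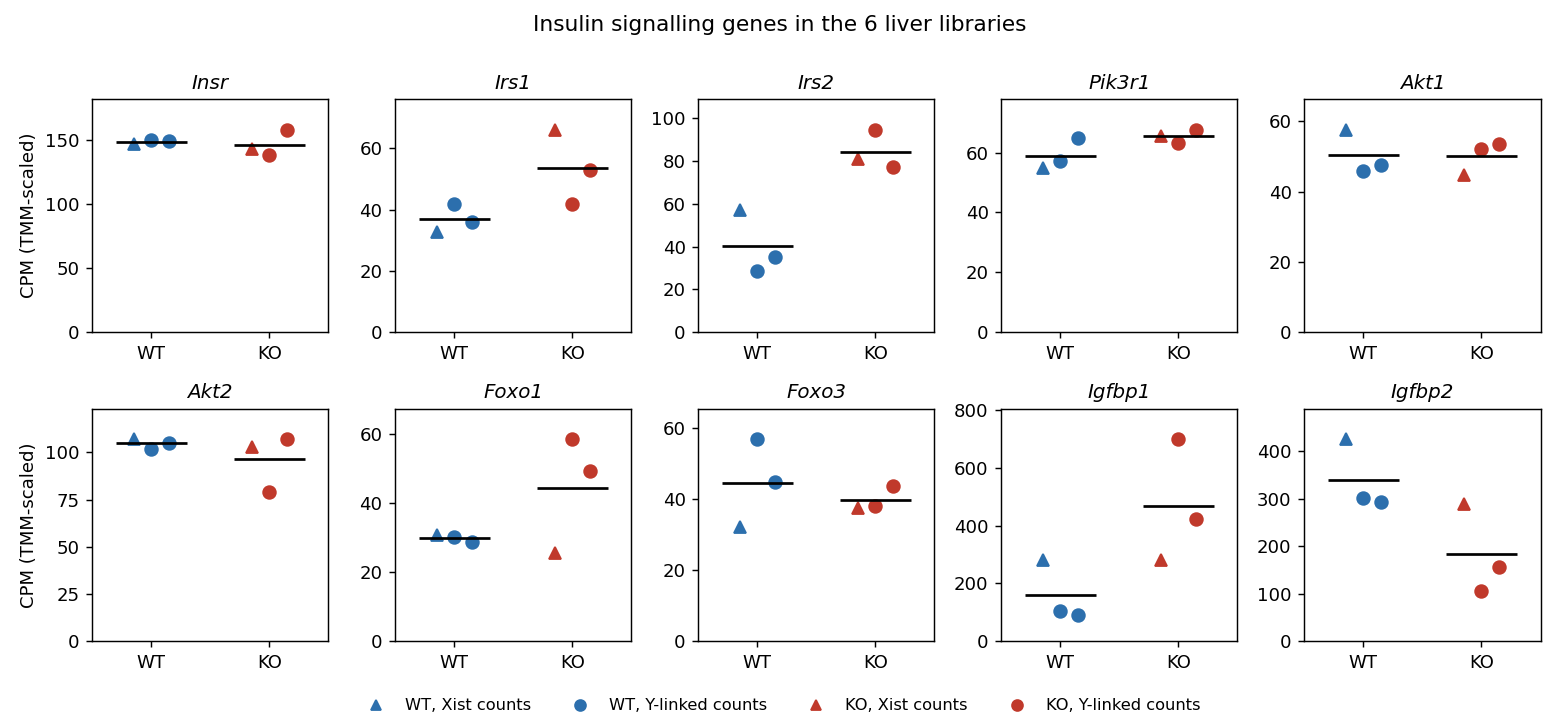
CPM of the 10 genes in each library, with WT in blue and KO in red. Triangles are the Xist-positive libraries, circles the Y-positive ones and lines group means, and each axis starts at 0. Irs2 is higher in every KO library, whereas the triangles of Igfbp1 lie close together between the circles of the groups and the KO triangle of Foxo1 is the lowest of its 6 points.

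Insr (chromosome 8, 3122061 to 3279617), which encodes the insulin receptor, had 143, 138 and 158 CPM in KO and 147, 149.7 and 149.6 CPM in WT. The groups overlapped, and the spread was larger in KO (SD 10.1 CPM) than in WT (SD 1.68 CPM). The log2 fold change was -0.02 with a 95% interval from -0.33 to 0.28, and the adjusted p in edgeR was 0.921. Its value was -0.02 within the Y-positive libraries and -0.04 in the Xist-positive pair. The related receptor gene Igf1r was low, at 1.60 to 2.11 CPM in KO and 1.85 to 3.37 CPM in WT, with a log2 fold change of -0.35 (95% interval -1.08 to 0.38).

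Irs2 (chromosome 8, 10984681 to 11008458) encodes the docking protein that is itself a FoxO target. It was at 81.1, 94.6 and 77.4 CPM in KO and at 57.3, 28.6 and 35.2 CPM in WT. Every KO library lay above every WT library, and WT 1 was the highest of its group. The means were 84.3 ± 9.09 and 40.4 ± 15 CPM (SD, n = 3), a 2.09-fold difference. On the log2 scale the difference was 1.06 ± 0.262 (SE), with a 95% interval from 0.44 to 1.68, and the adjusted p in edgeR was 0.0712. Among the Y-positive libraries Irs2 rose by 1.43 on the log2 scale (edgeR adjusted p = 0.00316), and in the Xist-positive pair the log2 ratio was 0.50. Irs2 passed the threshold in DESeq2 (adjusted p = 0.0035), and in edgeR without KO 1 (0.0387) and without WT 1 (0.0277). In the other leave-outs the adjusted p was 0.177 to 0.249.

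Irs1 (chromosome 1, 82233101 to 82291416), the second docking protein gene, had 66.1, 41.8 and 52.8 CPM in KO and 32.8, 41.7 and 36.0 CPM in WT. The groups were separated only by the small gap between KO 2 and WT 2. Irs1 had a log2 fold change of 0.54 ± 0.192 (SE), with a 95% interval from 0.09 to 1.00 and an edgeR adjusted p of 0.14. Unlike Irs2, the larger value was in the Xist-positive pair, at a log2 ratio of 1.01, against 0.28 in the Y-positive libraries (edgeR adjusted p = 0.21). The difference between these subsets did not pass the threshold for either gene, with interaction adjusted p in edgeR of 0.207 for Irs1 and 0.153 for Irs2. Irs4, a further member of the family, had 0 counts in every library, where 3 counts would be 0.0515 to 0.0641 CPM.

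Pik3r1 (chromosome 13, 101680563 to 101768217), the main regulatory subunit of PI3K, had 65.7, 63.2 and 67.6 CPM in KO and 54.7, 57.1 and 64.9 CPM in WT. KO 2 lay below WT 3, so the groups overlapped. For Pik3r1 the log2 fold change was 0.15, with a 95% interval from -0.12 to 0.43 and an adjusted p of 0.436 in edgeR. Of the other regulatory subunits, Pik3r3 passed the threshold. It was at 0.926, 0.936 and 0.722 CPM in KO and at 2.03, 2.29 and 2.37 CPM in WT, and fell by 1.37 on the log2 scale (SE 0.251, edgeR adjusted p = 0.0429). This call was kept without KO 1 (0.0117), whereas leaving out any other library gave adjusted p from 0.0782 to 0.213, and scaling by library size alone gave 0.0589. Pik3r2 had a log2 fold change of -0.28 (95% interval -0.62 to 0.06), and passed only without KO 1, with an adjusted p of 0.0358.

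Akt2 (chromosome 7, 27591552 to 27640826) encodes the Akt form most tied to insulin action in liver. It had 103, 78.8 and 107 CPM in KO and 107, 102 and 105 CPM in WT, with KO 2 apart from the other 5 libraries. Akt2 had a log2 fold change of -0.13, with a 95% interval from -0.49 to 0.24 and an edgeR adjusted p of 0.628. Akt1 (chromosome 12, 112653821 to 112674884), the form expressed in most tissues, had 44.8, 52.0 and 53.5 CPM in KO and 57.6, 45.9 and 47.6 CPM in WT. The replicate 1 libraries held both the lowest KO and the highest WT value. The log2 fold change was -0.01 (95% interval -0.34 to 0.32, edgeR adjusted p = 0.974), and it was 0.03 with scaling by library size alone. In the Y-positive libraries Akt1 had 0.17, and the Xist-positive pair gave -0.36. For Insr, Pik3r1, Akt1, Akt2 and Foxo3 a log2 change of 1 in either direction lay outside the 95% interval.

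Foxo1 (chromosome 3, 52268336 to 52353221), the main FoxO factor of hepatocytes, had 30.9, 30.3 and 28.9 CPM in WT. In KO it was at 25.6 CPM in replicate 1 and at 58.6 and 49.3 CPM in replicates 2 and 3. KO 1 was thus the lowest of all 6 libraries, and the other KO libraries were the highest. Over all 6 its log2 fold change was 0.57 ± 0.284 (SE, 95% interval -0.10 to 1.24), and an edgeR adjusted p of 0.253. Within the Y-positive libraries Foxo1 rose by 0.86 on the log2 scale (SE 0.121, edgeR adjusted p = 0.00589), whereas the Xist-positive pair gave -0.27. Leaving out 1 library at a time gave 0.32 (without KO 2, edgeR adjusted p = 0.553) to 0.84 (without KO 1, 0.00468). The difference between the Xist-positive pair and the Y-positive libraries had an unadjusted p of 0.00199 and an adjusted p of 0.0595 in the interaction fit of edgeR.

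Foxo3 (chromosome 10, 42181841 to 42276755) had 37.5, 38.0 and 43.9 CPM in KO and 32.3, 57.0 and 44.8 CPM in WT. The KO values lay inside the range of WT, and the log2 fold change was -0.17 (95% interval -0.67 to 0.33, edgeR adjusted p = 0.643). Foxo4, another factor of the family, had 20.4 to 29.5 CPM in KO and 26.4 to 28.5 CPM in WT, with a log2 fold change of -0.07. In the Y-positive libraries Foxo3 had -0.32 (edgeR adjusted p = 0.162) and Foxo4 -0.17 (0.528).

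Igfbp1 (chromosome 11, 7197782 to 7202546) encodes a secreted protein that binds insulin-like growth factors, and its promoter, shown above, is repressed by insulin through FoxO1. It had 281, 700.0 and 425 CPM in KO and 283, 106 and 91.1 CPM in WT. The replicate 1 libraries of both groups had nearly the same level, above the other WT and below the other KO libraries. The log2 fold change over 6 libraries was 1.55 ± 0.526 (SE), with a 95% interval from 0.30 to 2.80 and an adjusted p of 0.128 in edgeR. DESeq2 gave an adjusted p of 0.0106 for the same libraries. Within the Y-positive libraries Igfbp1 rose by 2.51 on the log2 scale, or 5.68-fold (SE 0.278, edgeR adjusted p = 0.00306). In the Xist-positive pair the log2 ratio was -0.01. The interaction of group with this state had an unadjusted p of 0.00195 and an adjusted p of 0.0587 in edgeR, so the difference between the subsets did not pass the threshold. Without KO 1 the edgeR adjusted p over the 5 remaining libraries was 0.047. It was 0.0688 without WT 1 and 0.272 to 0.336 without any of the other 4, and the leave-out values ran from 1.14 to 2.25 on the log2 scale.

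Igfbp2 (chromosome 1, 72824503 to 72852474), a second IGF binding protein made by hepatocytes, went the other way. It had 288, 105 and 156 CPM in KO and 425, 302 and 292 CPM in WT, and every KO library lay below every WT library. The replicate 1 library was the highest in each group. The log2 fold change was -0.89 ± 0.378 (SE, 95% interval -1.79 to 0.01), with an adjusted p of 0.192 in edgeR. It fell by 1.19 on the log2 scale in the Y-positive libraries (SE 0.217, edgeR adjusted p = 0.0126), and the Xist-positive pair gave -0.56. With the state of the libraries as a covariate the adjusted p in edgeR was 0.0498 for Igfbp2, 0.0401 for Irs2 and 0.105 for Igfbp1, in a fit that called 10.3% of all genes. Leaving out KO 1 gave -1.39 (edgeR adjusted p = 0.0125). Without KO 2 the value was -0.60, and none of the 5 leave-outs other than KO 1 passed, with adjusted p from 0.332 to 0.417.

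**Figure D2:**
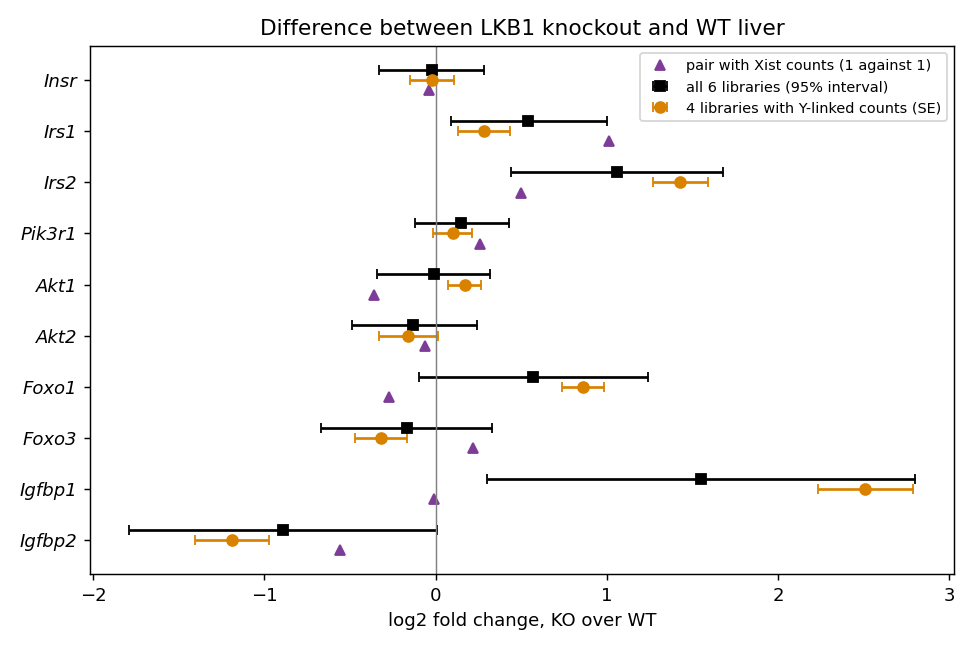
Log2 fold change of KO over WT for the 10 genes. Black squares are all 6 libraries with 95% intervals, orange circles the 4 Y-positive libraries with SE, and purple triangles the Xist-positive pair, which has no error. Orange circles of Irs2, Foxo1 and Igfbp1 lie to the right of 0 and that of Igfbp2 to the left, while the triangles of Foxo1 and Igfbp1 are at -0.27 and -0.01.

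The KO effect in the Xist-positive pair was compared with that in the other 4 libraries by an interaction term. None of the 10 genes passed an adjusted p of 0.05 in edgeR (background 2.9%), and 5 had an unadjusted p under 0.05 (Irs1, Irs2, Akt1, Foxo1 and Igfbp1), where 20.9% of all genes did. The pair is 1 mouse of each group, so its error is taken from the other libraries. The share of all counts taken by Alb was 5.25% in KO 1 against 1.13% and 1.63% in the other KO libraries and 5.6% to 9.76% in WT. KO 1 also retained the most Stk11 of its group, and the part of either in the values of the 10 genes was not tested.

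Levels were compared between genes per kilobase of annotated exon. In WT liver Igfbp2 and Igfbp1 were the most abundant, at 184 ± 40.3 and 105 ± 70.1 CPM per kilobase (SD, n = 3), and did not differ beyond their spread. Akt2 followed at 14.7 ± 0.342, Akt1 at 12.3 ± 1.54, Insr at 10.8 ± 0.122 and Irs2 at 6.38 ± 2.37 CPM per kilobase. Foxo3 (5.90 ± 1.63), Pik3r1 (5.84 ± 0.527), Irs1 (4.03 ± 0.492) and Foxo1 (3.46 ± 0.118) were the lowest on this scale. In WT, Akt1 and Insr, then Irs2, Foxo3 and Pik3r1, and Irs1 and Foxo1 did not differ from their neighbours beyond their spread. In KO liver Igfbp1 had the higher mean of the 2 binding proteins, at 307 ± 140 against 99.1 ± 51.2 CPM per kilobase for Igfbp2. Neither gene passed the threshold between KO and WT over 6 libraries in edgeR. Irs2 stood at 13.3 ± 1.44 CPM per kilobase beside Akt2 at 13.5 ± 2.15, Akt1 at 12.2 ± 1.14 and Insr at 10.6 ± 0.737, and no neighbours among these 4 differed beyond their spread. Pik3r1 (6.50 ± 0.22), Irs1 (5.86 ± 1.33), Foxo3 (5.26 ± 0.469) and Foxo1 (5.14 ± 1.96) followed.

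Ratios of related genes within a library do not depend on scaling. The count of Igfbp1 over that of Igfbp2 was 0.977, 6.69 and 2.72 in KO and 0.666, 0.352 and 0.312 in WT. All KO ratios were above all WT ratios, and the mean log2 ratio differed by 2.64 (exact two-sided permutation test p = 0.1, the smallest that 3 against 3 allows, and 0.4 when adjusted over the 4 ratios). The ratio of Irs2 to Irs1 was 1.23, 2.27 and 1.46 in KO and 1.74, 0.686 and 0.979 in WT, and the groups overlapped (exact permutation p = 0.3). Foxo1 over Foxo3 was 0.682, 1.54 and 1.12 in KO and 0.956, 0.532 and 0.645 in WT (exact permutation p = 0.2). Akt2 over Akt1 was between 1.51 and 2.29 in all libraries, with a difference of -0.13 on the log2 scale (exact permutation p = 0.7). For Irs2 to Irs1 and for Foxo1 to Foxo3 the KO ratio was below the WT ratio in the replicate 1 libraries and above it in all others.

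**Figure D3:**
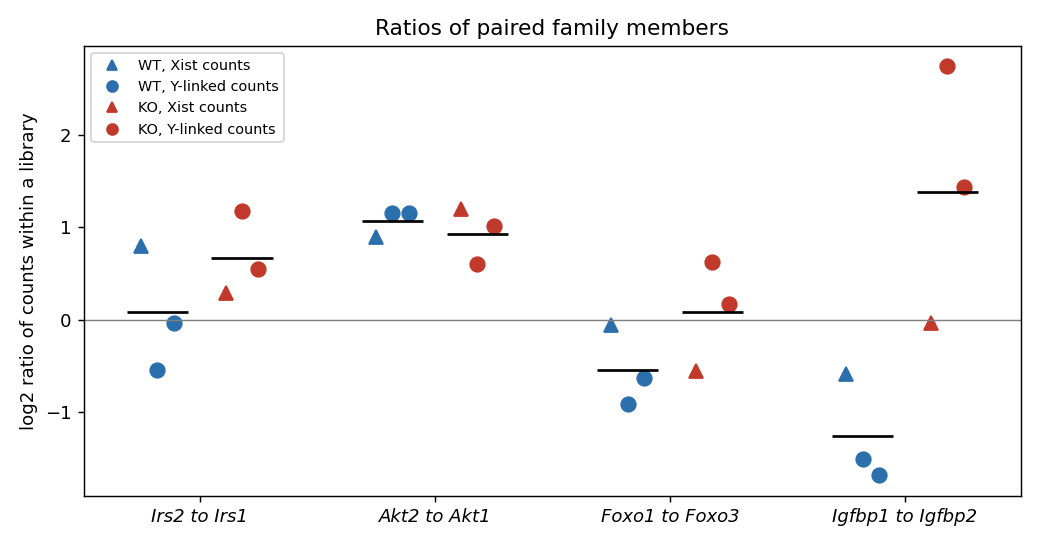
Log2 ratio of the counts of 2 related genes within each library, with WT in blue, KO in red and lines for group means. Triangles mark the Xist-positive libraries. The Igfbp1 to Igfbp2 ratio runs from -1.68 to -0.59 in WT and from -0.03 to 2.74 in KO, while Akt2 to Akt1 stays between 0.60 and 1.20 in all 6.

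The genes nearest in pattern were found by the root mean square difference of log2 CPM over the 6 libraries after each gene's mean was taken off, among 11355 protein-coding genes. For Igfbp1 they were Pck2 and Tnfaip3, at differences of 0.242 and 0.247, and for Irs2 Steap4 and Smarcd3, at 0.112 and 0.15. Foxo1 was nearest to Gdap2 (0.0433) and Eif4enif1 (0.0591), and Igfbp2 to Myl9 (0.0622). Steap4 had 160.3, 229 and 176 CPM in KO and 117, 63.2 and 85.6 CPM in WT, so that, as for Irs2, WT 1 was the highest WT library and KO 2 the highest of all. The nearest neighbours describe likeness over 6 libraries only.

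The 9 lists of pathway genes, with the 10 members among them, held 136 genes, of which 132 were tested over 6 libraries. Of the 132, 3 passed the threshold in edgeR, or 2.27% beside 3.37% of all genes. Pik3c2g and Ppargc1a were higher, and Pik3r3 was lower. The median log2 fold change of the list genes was -0.13 beside 0.0103 over all genes tested. In the Y-positive libraries 48 of 133, or 36.1%, passed, 18 higher and 30 lower, beside 33.3% of all genes. For the list counts below, 26.3% of all genes had an unadjusted p under 0.05 in edgeR over 6 libraries. DESeq2 called 14.6% of all genes and limma voom 2.97%. Leaving out KO 1 gave 50 list genes, where 30.2% of all genes passed. Leaving out KO 2, KO 3, WT 2 or WT 3 gave 0 each, where 86, 35, 6 and 20 of all genes passed. Apart from Pik3r3, Pik3c2g, Ppargc1a, Pck1 and G6pc, the list genes outside the 10 that are described below were chosen after their values were seen.

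Among 15 genes of PI3K and phosphoinositide enzymes, 1 rose and 1 fell, or 13.3% beside 3.37% of all genes. Pik3c2g, a class II PI3K of hepatocytes, had 8.83, 11.6 and 11.2 CPM in KO and 3.94, 5.86 and 4.68 CPM in WT, with no overlap. It rose by 1.12 on the log2 scale (SE 0.201, edgeR adjusted p = 0.04), with nearly equal values in the Y-positive libraries (1.10) and the Xist-positive pair (1.14). The call was kept without KO 1 (0.0074) and was lost without any other library, with adjusted p from 0.0825 to 0.195. Of this list Pik3c2a and Pik3c2g rose and Pik3cb and Pik3r3 fell in the Y-positive libraries, or 26.7% beside 33.3% of all genes. For the list of receptor and docking genes 0 of 12 passed over 6 libraries and 4 had an unadjusted p under 0.05, while DESeq2 called 2 and limma voom 0. In the Y-positive libraries 1 rose, Irs2, and 1 fell, or 16.7% beside 33.3% of all genes.

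Of 14 genes for Akt, its regulators and substrates, 0 passed over 6 libraries, 4 had an unadjusted p under 0.05, and DESeq2 and limma voom called 2 and 0. Within the Y-positive subset 2 rose (Gsk3b and the phosphodiesterase gene Pde3b) and 2 fell (Phlpp2 and Tbc1d4), or 28.6% beside 33.3% of all genes. Gsk3b, a kinase that Akt inhibits, rose by 0.70 on the log2 scale (edgeR adjusted p = 0.00605). Phlpp2, a phosphatase of Akt, fell by 0.84 (edgeR adjusted p = 0.0183). Tbc1d4, an Akt substrate in vesicle traffic, fell by 1.60 (edgeR adjusted p = 0.00924). Of 15 genes of the mTOR complexes and TSC 0 passed over 6 libraries, and 4 had an unadjusted p under 0.05. DESeq2 and limma voom called 1 and 0. In the Y-positive libraries 1 rose (Rheb, the activator of mTORC1) and 3 fell (Mtor, Tsc1 and Eif4ebp2), or 26.7% beside 33.3% of all genes.

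The list of negative regulators held 13 tested genes, of which 0 passed over 6 libraries and 4 had an unadjusted p under 0.05. DESeq2 called 4 and limma voom 0. Socs2, a feedback inhibitor of cytokine and growth hormone receptors, had 10.6, 5.40 and 8.19 CPM in KO and 47.6, 16.4 and 23.5 CPM in WT, with a log2 fold change of -1.86 ± 0.432 (SE, edgeR adjusted p = 0.064). Socs3, which can also bind the insulin receptor and IRS proteins, had 3.81, 15.4 and 9 CPM in KO and 4.75, 2.74 and 2.93 CPM in WT. Like Igfbp1 and Foxo1, Socs3 was close in the replicate 1 libraries, and it rose in the Y-positive libraries by 2.10 on the log2 scale (edgeR adjusted p = 0.0053). The other changes in the Y-positive libraries were Ptpn2 higher and Ptprf and Socs2 lower. Fetub, a secreted protein of the fetuin family, fell there by 2.07 (edgeR adjusted p = 0.0027). Together the calls there were 5 of 14 tested genes, or 35.7% beside 33.3% of all genes.

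Of 13 FoxO factors and cofactors 0 passed over 6 libraries, 2 had an unadjusted p under 0.05, and DESeq2 and limma voom called 1 and 0. In the Y-positive libraries Foxo1 rose, as did Ywhaz, which encodes a 14-3-3 protein that binds phosphorylated FoxO, by 0.69 on the log2 scale (edgeR adjusted p = 0.0161). The forkhead factor Foxa1 fell by 1.31 (edgeR adjusted p = 0.00331) and the methyltransferase gene Setd7 fell by 0.78 (0.0177). These 4 calls were 30.8% of the 13 genes, beside 33.3% of all genes.

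The list of FoxO target genes held 30 genes, all tested. Over 6 libraries 1 rose and 0 fell, the median log2 fold change was -0.04, 11 had an unadjusted p under 0.05, and DESeq2 and limma voom called 8 and 1. Ppargc1a, the coactivator that drives glucose production with FoxO1, had 24.7, 75.2 and 76.4 CPM in KO and 12.3, 5.75 and 4.28 CPM in WT and rose by 2.98 on the log2 scale (SE 0.565, edgeR adjusted p = 0.0446). This call was kept without KO 1 (0.00438) and without WT 1 (0.0494), and was lost without any other library, with adjusted p from 0.118 to 0.211. Of the 30, in the Y-positive libraries, 7 rose and 6 fell (43.3% beside 33.3% of all genes). Of all genes 17.2% were called higher there and 16.1% lower. The median log2 fold change of the 30 in these libraries was 0. Those that rose included Igfbp1, Irs2 and Ppargc1a, Gadd45a, a stress-response gene, at a log2 fold change of 1.89 (edgeR adjusted p = 0.0075), and the lipase gene Pnpla2 at 1.08 (0.0144). Those that fell included Bcl6, a transcriptional repressor, at -2.68 (edgeR adjusted p = 0.00528), Sesn1, a stress-response gene and regulator of mTORC1, at -1.57 (0.00443), and the catalase gene Cat at -1.45 (0.0115). The Xist-positive pair had the opposite sign for Gadd45a (-0.97) and Bcl6 (0.50), and over 6 libraries their edgeR adjusted p were 0.256 and 0.128. For Pnpla2, Cat and Sesn1 the pair gave 0.05, -0.20 and -0.81. Over 6 libraries these genes had edgeR adjusted p of 0.176, 0.118 and 0.0756. Pck1, the gluconeogenic enzyme PEPCK, was at 3534, 3367 and 5955 CPM in KO and 2467, 2109 and 1922 CPM in WT (log2 fold change 0.98, edgeR adjusted p = 0.101), and rose by 1.20 in the Y-positive libraries (0.0419). G6pc, the glucose-6-phosphatase gene, had 1377, 571 and 842 CPM in KO and 678, 967 and 977 CPM in WT, with overlapping groups and a log2 fold change of 0.09 that was -0.47 in the Y-positive libraries.

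Genes that insulin raises were described by a list of 13 tested members, of which 0 passed over 6 libraries and 3 had an unadjusted p under 0.05. DESeq2 called 3 and limma voom 1. In the Y-positive libraries, where 16.1% of all genes were called lower and 17.2% higher, 6 of 13 fell, among them the carbohydrate-responsive factor Mlxipl at -1.27 (edgeR adjusted p = 0.00404) and the lipogenic gene Thrsp at -1.71 (0.0107), and 1 rose. That one was Acly, the ATP citrate lyase gene, by 1.45 (edgeR adjusted p = 0.0228). Over 6 libraries the value for Acly was 1.33 on the log2 scale (edgeR adjusted p = 0.0507). Mlxipl had -0.38 (edgeR adjusted p = 0.654) and Thrsp -0.91 (0.295) over the same libraries. The Xist-positive pair gave 1.05 for Acly, 0.58 for Mlxipl and -0.02 for Thrsp.

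Of 13 genes in the list of IGF ligands, receptors, binding proteins and Igf2bp2 0 passed over 6 libraries, 6 had an unadjusted p under 0.05, and the median log2 fold change was -0.43. DESeq2 called 4 of them and limma voom 0. Of these, in the Y-positive libraries, 2 rose (Igfbp1 and Igf2bp2, which encodes a protein that binds the mRNA of Igf2 and not IGF itself) and 5 fell (Igfbp2, Igfals, Igfbp3, Igfbp7 and Igf2r), or 53.8% beside 33.3% of all genes. Igfals, the acid-labile subunit that carries IGF in plasma, fell by 1.69 on the log2 scale (edgeR adjusted p = 0.00274). Igfals had 78.3, 28.8 and 40.2 CPM in KO and 122, 107 and 114 CPM in WT. Igfbp7, which liver endothelial cells are known to express, fell by 1.06 (edgeR adjusted p = 0.00877). In these 4 libraries 8 of the 10 endothelial markers and 4 of the 9 stellate markers were called lower, where 16.1% of all genes were. Their part in the value of Igfbp7 was not tested.

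**Figure D4:**
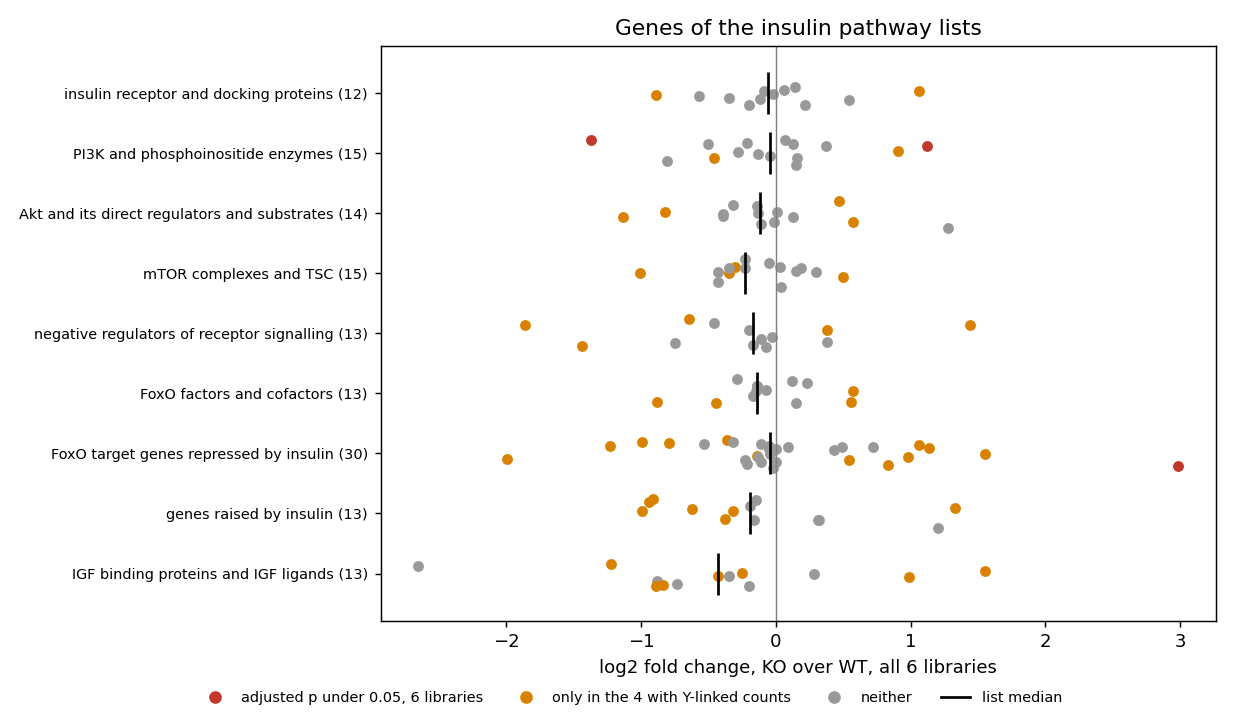
Log2 fold change of KO over WT in all 6 libraries for the tested genes of 9 lists, with the number tested in brackets and the list median as a black line. Red points passed an adjusted p of 0.05 over 6 libraries (Pik3r3, Pik3c2g and Ppargc1a), orange points only in the 4 Y-positive libraries, and the vertical position within a list has no meaning. In the FoxO target list the orange and red points lie on both sides of 0.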

How the data were processed

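Poly(A) RNA of 6 mouse livers was sequenced as paired reads. The authors deposited a table of expected counts per gene for 55450 genes and 6 libraries. Per the submitters' processing notes, bcl2fastq 2.17, cutadapt 1.18, STAR 2.7.0f, RSEM 1.3.1 and the build mm9 were used, whereas all 55450 gene identifiers with their versions were found in GENCODE release M21 (GRCm38), from which positions were taken. Strand use is not given in the sources used here. Genes that overlap the members had at most 5 counts. Columns were matched to samples by the samples' descriptions and groups by their titles, with 0 columns left over.

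Counts were rounded, filtered by filterByExpr, scaled by TMM and tested with the quasi-likelihood test of edgeR 4.0.16 in R 4.3.3, with the group as the only term and Benjamini-Hochberg adjustment over all 14539 genes (threshold 0.05). SE is the log2 fold change divided by the root of F. Intervals are at 95%. Log2 ratios of the pair with Xist counts use an offset of 0.1 CPM, and log2 CPM for patterns a prior count of 2. Alternatives used DESeq2 1.42.0 and limma 3.58.1. The fits were tested on simulated data. P-values measure the spread between mice.

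The members and lists were chosen with earlier results of these data known. Named were the 10 members, Stk11, up to 5 called genes per list, Igf1r, Pik3r2, Pik3r3, Foxo4, Irs4, G6pc, Pck1 and Ppargc1a, and the 2 nearest genes of a member. Other genes were chosen after their values were seen. Some genes of the lists are not reported here by name.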

Additional observations from a re-analysis of the deposited data

Results flagged for a closer look

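The KO effect on 2 of the named genes differed between the Xist-positive pair and the 4 Y-positive libraries, by the interaction term of edgeR. For Ppargc1a the log2 fold change differed by -2.91 (pair minus the others), with 1.00 in the pair and 3.91 in the other libraries (interaction adjusted p = 0.0103). For Mlxipl the difference was 1.84, with 0.58 in the pair and -1.27 in the other libraries (interaction adjusted p = 0.034). Of the 132 pathway list genes tested 4 passed this term, among them Trib1 (interaction adjusted p in edgeR 0.0256), beside 2.9% of all genes. The pair holds 1 library of each group.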

How the results depend on the processing

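Over 14539 genes edgeR called 490. The number was 771 with no filter on low counts, 2252 in DESeq2, 105 with the replicate block, 1504 with the state of the libraries as a covariate, 4847 in the 4 Y-positive libraries and between 6 and 4473 when 1 library was left out. Of the 10 members 0 were called, and 2 in DESeq2, 2 with the state as a covariate, 4 in the Y-positive libraries and 0 to 4 with 1 library left out. Of the pathway list genes 3 were called, and 5 with no filter, 26 in DESeq2, 1 with the replicate block, 16 with the state as a covariate, 48 in the Y-positive libraries and 0 to 50 with 1 library left out. Scaling by library size alone raised the share of higher genes among all calls from 63.9% to 74.4%. Some directions turned. Insr was at 0.02 with library size alone and between -0.08 and 0.02 in leave-outs. Akt1 was at 0.03 with library size alone, 0.17 in the Y-positive libraries and -0.07 to 0.10 in leave-outs. G6pc was at -0.47 in the Y-positive libraries and -0.31 to 0.35 in leave-outs. The leave-outs ran from -0.21 to 0.01 for Akt2, -0.36 to 0.04 for Foxo3, -0.17 to 0.08 for Foxo4 and -0.26 to 0.03 for the log2 ratio of Akt2 to Akt1. The ratio of Foxo1 to Foxo3 differed by 0.62 over all libraries, by 1.17 in the Y-positive libraries and by 0.35 to 0.93 in leave-outs. The cause was not tested.

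Same-numbered KO and WT samples are different mice, and their deviations from the group means correlated at 0.178, 0.0443 and 0.0679, so the replicate numbers were not treated as pairs. With the replicate block none of the 10 members passed. Of the list genes Socs2 passed there (edgeR adjusted p = 0.0348), and Pik3c2g (0.055), Pik3r3 (0.0883) and Ppargc1a (0.0981) did not. The precision is limited by 3 mice per group, and by 2 in the Y-positive libraries.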
